A study of Homo sapiens with 16 samples.

Results

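Matrix metalloproteinases (MMPs) and ADAMTS proteases are zinc enzymes that cut the extracellular matrix, and ADAMTS-like proteins (ADAMTSL) share the ancillary domains of ADAMTS enzymes without the protease. The genes described here are the protein-coding genes whose symbol is MMP, ADAMTS or ADAMTSL followed by a number, with MMP16 left out. They were 45 of 20033 protein-coding genes, namely 21 MMP, 19 ADAMTS and 5 ADAMTSL genes. For each gene, peaks within 1 kb of either annotated gene end were taken from CUT&RUN, in which a nuclease tethered to an antibody releases the bound chromatin.

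The antibodies were against EZH2, against H3K27me3 and against H3K4me3. EZH2 is the catalytic subunit of Polycomb repressive complex 2 and deposits H3K27me3, a mark of repressed genes, while H3K4me3 marks active or poised promoters. All libraries came from LNCaP, an established androgen-responsive prostate carcinoma line grown from a lymph node metastasis. The groups were cells with a guide against PRKCI (sgPRKCI), which encodes atypical protein kinase C iota, on 10 µM enzalutamide for 72 h, cells with a control guide (sgC) on the same dose of this androgen receptor antagonist, sgPRKCI cells in DMSO and sgC cells in DMSO. All 4 groups thus carried a guide, and whether the cells were a clone or a pool is not given in the sources used here. Each antibody had 1 library in each group, so no difference below has a replicate check and no test was made. Intervals are exact 95% binomial intervals and cover counting error only.

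MMPs are made as proenzymes, are activated outside the cell or by furin-like proteases on the way out, and are held back by the tissue inhibitors TIMP1 to TIMP4 and by the membrane protein RECK. The collagenases, gelatinases, stromelysins and matrilysins are named for their substrates, and the membrane-type MMPs stay on the cell surface. Among ADAMTS enzymes the hyalectanases cut aggrecan and versican, ADAMTS2, ADAMTS3 and ADAMTS14 trim procollagens, and ADAMTS13 cuts von Willebrand factor. Many of these genes are expressed by stromal cells and leukocytes and are silent in epithelium, and several MMPs are induced by AP-1 factors in invading tumours.

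The 12 peak lists differed in length. The EZH2 library of sgPRKCI enzalutamide stood apart over all genes. It held 24551 peaks, against 15373 in sgC enzalutamide, 6182 in sgPRKCI DMSO and 11452 in sgC DMSO. It had an EZH2 peak at 62.7% of all protein-coding genes, and at 95.8% of those with H3K4me3, against 8.26% of those in sgC enzalutamide, 7.6% in sgPRKCI DMSO and 22.5% in sgC DMSO. Its EZH2 lay at 48.5% of all genes with H3K27me3, against 45.8% in sgC enzalutamide, 30.7% in sgPRKCI DMSO and 45.6% in sgC DMSO. It was also the 1 narrow list whose summits came out as whole fragments only after a scale of 0.89. Whether material of another library was mixed in or exchanged was not tested, and every EZH2 value below for sgPRKCI enzalutamide is that of the library so labelled. Mean fragment coverage recovered from the EZH2 lists was 1.53 in sgPRKCI enzalutamide, 1.68 in sgC enzalutamide, 1.13 in sgPRKCI DMSO and 1.35 in sgC DMSO. H3K27me3 peaks covered 249.3 Mb in sgPRKCI enzalutamide, 289.6 Mb in sgC enzalutamide, 232.3 Mb in sgPRKCI DMSO and 191.7 Mb in sgC DMSO. Of 8 luminal prostate genes, H3K4me3 was listed at 7 or 8 in every library. Among the defining genes of other cell types it was listed at 1 of 4 for fibroblasts (COL1A1), 0 of 3 for leukocytes and 0 of 2 for endothelium.

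The protease genes were marked by H3K27me3 more often, and by H3K4me3 less often, than protein-coding genes at large. H3K27me3 lay at 23 of 45 in sgPRKCI enzalutamide (51.1%, interval 35.8 to 66.3%, against 16% of all genes) and at 20 in sgC enzalutamide (17.9% of all genes). In DMSO it lay at 21 genes in sgPRKCI (17.6% of all genes) and at 18 in sgC (16.2% of all genes). H3K4me3 lay at 16 genes in sgPRKCI enzalutamide (35.6%, interval 21.9 to 51.2%, against 61.4% of all genes) and at 15 in sgC enzalutamide (60.9% of all genes). It lay at 15 in sgPRKCI DMSO (61.1% of all genes) and at 13 in sgC DMSO (59.3% of all genes). The 49 collagen and lysyl oxidase genes, which encode the matrix that these enzymes act on, had H3K27me3 at 22 to 25 and H3K4me3 at 16 to 18, close to the protease genes.

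**Figure D1:**
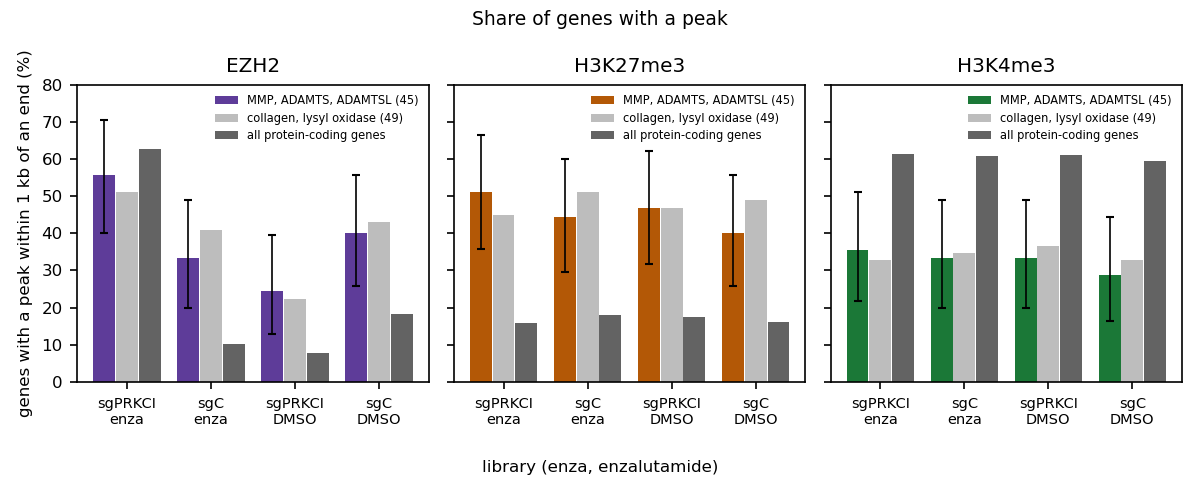
Share of genes with an EZH2, H3K27me3 or H3K4me3 peak within 1 kb of a gene end, in percent, in each library. Coloured bars are the 45 MMP, ADAMTS and ADAMTSL genes with exact 95% binomial intervals, light bars the 49 collagen and lysyl oxidase genes, dark bars all protein-coding genes. H3K27me3 was above and H3K4me3 below the share of all genes in each of the 4 libraries. The EZH2 share was above that of all genes in every library but sgPRKCI enzalutamide, where the share of all genes lay inside the interval.

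EZH2 lay at 25 of 45 genes in sgPRKCI enzalutamide (55.6%, interval 40 to 70.4%), and the 62.7% of all genes lay inside that interval. In the other libraries its share was above that of all genes, with 15 genes in sgC enzalutamide (33.3%, against 10.3%), 11 in sgPRKCI DMSO (24.4%, against 7.67%) and 18 in sgC DMSO (40%, against 18.3%). The families differed. Among ADAMTS genes EZH2 lay at 14 of 19 in sgPRKCI enzalutamide, 10 in sgC enzalutamide, 8 in sgPRKCI DMSO and 14 in sgC DMSO. Among MMP genes it lay at 7 of 21 in sgPRKCI enzalutamide, 3 in sgC enzalutamide, 1 in sgPRKCI DMSO and 2 in sgC DMSO.

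Over the 4 libraries together, 19 genes had H3K27me3 and never H3K4me3 (42.2%, against 14.6% of all genes), and 11 had H3K4me3 and never H3K27me3 (24.4%, against 56.1%). Another 6 had each mark in at least 1 library (13.3%, against 6.81%), and 9 had neither (20%, against 22.6%). The 9 without either mark were ADAMTS4, ADAMTS12, MMP12, MMP13, MMP14, MMP19, MMP21, MMP27 and MMP28, and none of them had an EZH2 peak in any library. MMP14, the membrane-type enzyme that activates pro-MMP2, thus had no peak of any of the 3 antibodies within 1 kb of its ends. With a window of 5 kb, ADAMTS4 and MMP19 had H3K4me3 in all 4 libraries, so their place among the 9 depends on the window.

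**Figure D2:**
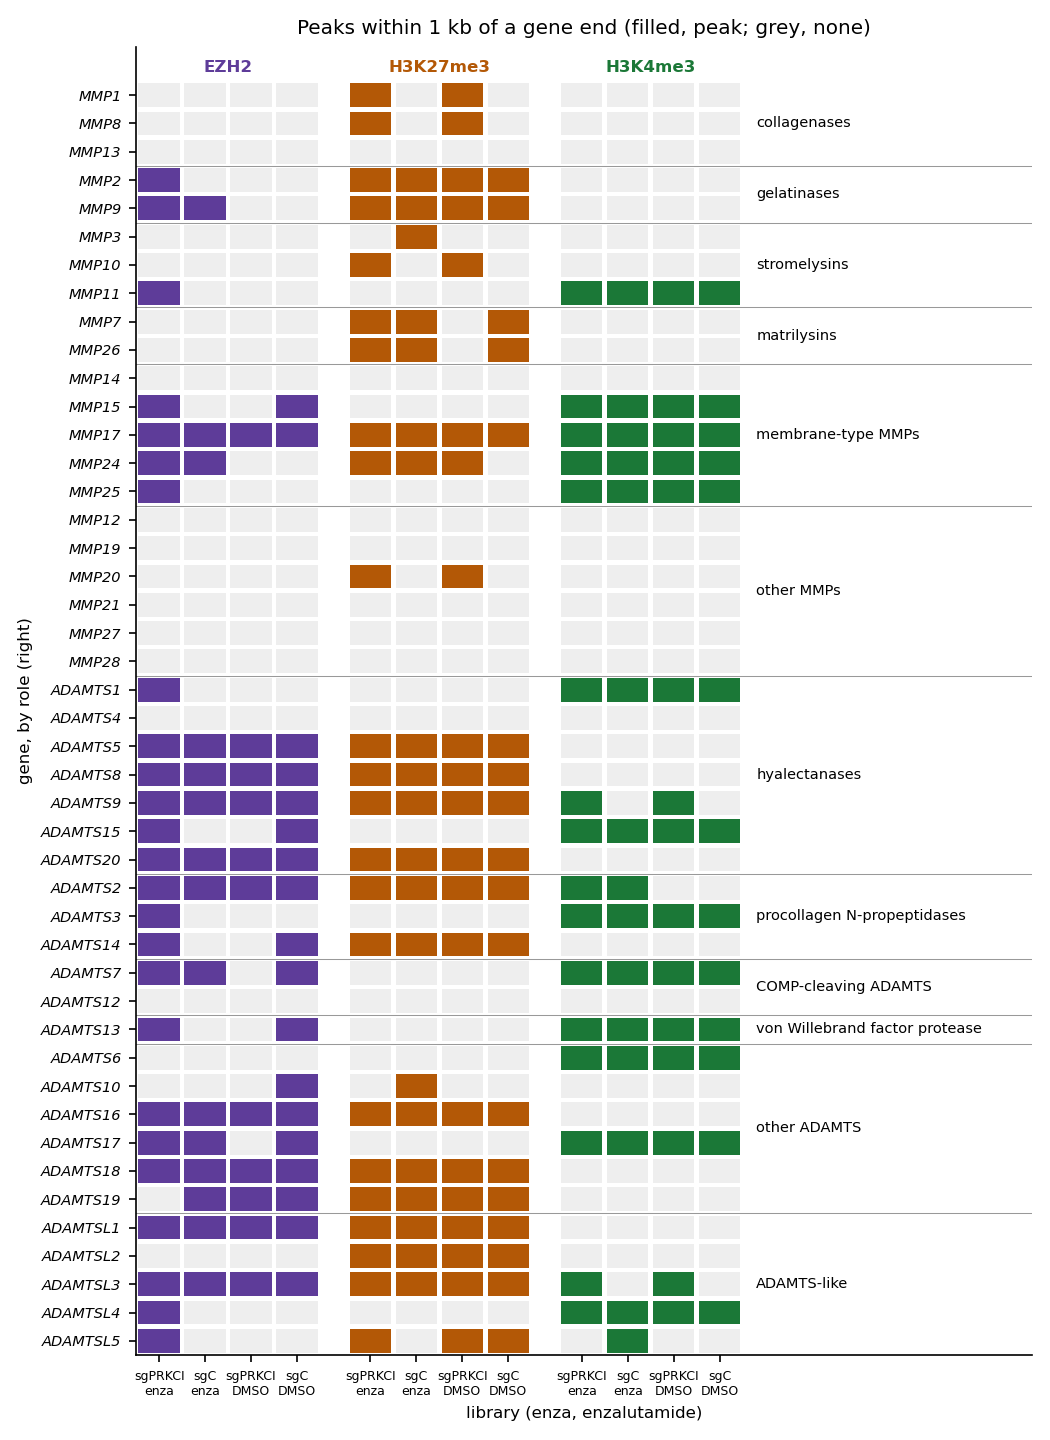
Peaks within 1 kb of a gene end for the 45 genes (rows, grouped by role) in the 12 libraries (columns). A filled square is a peak and a grey one none. H3K27me3 and H3K4me3 fill separate rows for most genes, EZH2 in sgPRKCI enzalutamide alone fills 7 rows, and H3K27me3 at MMP1, MMP8, MMP10 and MMP20 is filled in both sgPRKCI columns and neither sgC column.

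EZH2 was carried in all 4 libraries by 10 of 45 genes (22.2%, against 5.27% of all genes). They were the hyalectanases ADAMTS5, ADAMTS8, ADAMTS9 and ADAMTS20, the procollagen N-propeptidase ADAMTS2, the enzymes ADAMTS16 and ADAMTS18, the glycoproteins ADAMTSL1 and ADAMTSL3, and the membrane-anchored MMP17. Every one of them also carried H3K27me3 in all 4 libraries. Without sgPRKCI enzalutamide the count was 11 genes (24.4%, against 5.67%), ADAMTS19 being the addition. The summit height of a peak is the number of fragments at its summit divided by the mean fragment coverage of its library. At these 10 genes the median EZH2 height was 17.3 in sgPRKCI enzalutamide, 25 in sgC enzalutamide, 16 in sgPRKCI DMSO and 17.8 in sgC DMSO. Compared with all peaks of the same list, 2 of the 10 were above the median height in sgPRKCI enzalutamide, 10 in sgC enzalutamide, 5 in sgPRKCI DMSO and 8 in sgC DMSO.

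ADAMTS18 (chr16:77282128-77435034, minus strand) was the gene most covered by H3K27me3. Peaks lay over 91.5% of its body and 10 kb flanks in sgPRKCI enzalutamide, 91.4% in sgC enzalutamide, 91.2% in sgPRKCI DMSO and 87.4% in sgC DMSO. The 4 values lay close together, and both gene ends were inside H3K27me3 peaks in every library. Its EZH2 height was 37.2 in sgPRKCI enzalutamide, 39.9 in sgC enzalutamide, 37.3 in sgPRKCI DMSO and 31.1 in sgC DMSO. Each EZH2 peak spanned the transcription start and overlapped an H3K27me3 peak and no H3K4me3 peak. The promoter held 30 CpG dinucleotides between 250 bases before and 50 bases after the start, against a median of 22 over 15841 promoters. It is shown 5′ to 3′ (RefSeq, GRCh38.p14, chr16:77434985-77435284, minus strand) with CpG in capitals, since the EZH2 peaks of all 4 libraries covered it.
ADAMTS18: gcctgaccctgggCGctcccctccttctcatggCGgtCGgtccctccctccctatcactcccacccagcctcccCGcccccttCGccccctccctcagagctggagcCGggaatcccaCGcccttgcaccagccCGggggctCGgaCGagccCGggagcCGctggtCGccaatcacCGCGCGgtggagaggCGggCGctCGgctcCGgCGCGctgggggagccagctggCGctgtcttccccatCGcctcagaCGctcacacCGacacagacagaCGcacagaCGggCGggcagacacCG

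ADAMTS16 (chr5:5140330-5320304) had the tallest EZH2 peak of the always occupied genes in sgC enzalutamide. Its height was 25.5 in sgPRKCI enzalutamide, 61.3 in sgC enzalutamide, 36.4 in sgPRKCI DMSO and 34.8 in sgC DMSO. The sgC enzalutamide value was the highest and the sgPRKCI enzalutamide value the lowest. ADAMTS8, a hyalectanase, had heights of 26.8 in sgPRKCI enzalutamide, 35.1 in sgC enzalutamide, 27.5 in sgPRKCI DMSO and 28.8 in sgC DMSO. ADAMTS16 was under H3K27me3 over 63% to 72.7% of its body and flanks.

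The other always occupied genes had lower peaks. ADAMTS5, a main aggrecanase of cartilage, had EZH2 heights of 14.4 in sgPRKCI enzalutamide, 16.7 in sgC enzalutamide, 13.3 in sgPRKCI DMSO and 13.3 in sgC DMSO. ADAMTS20, a versicanase, had 13.7 in sgPRKCI enzalutamide, 14.3 in sgC enzalutamide, 16.9 in sgPRKCI DMSO and 14.8 in sgC DMSO. Both stayed in a narrow range over the 4 libraries. ADAMTS2 had 17.6 in sgPRKCI enzalutamide, 14.9 in sgC enzalutamide, 10.7 in sgPRKCI DMSO and 16.3 in sgC DMSO. ADAMTSL1 had 17 in sgPRKCI enzalutamide, 25 in sgC enzalutamide, 15.1 in sgPRKCI DMSO and 17.8 in sgC DMSO. The sgPRKCI DMSO value was the lowest at each of these 2 genes. The count depended on the setting. With a −log10 q of at least 10 the genes with EZH2 in all 4 libraries were 5 (ADAMTS8, ADAMTS16, ADAMTS18, ADAMTS20 and MMP17; 11.1%, against 3.21% of all genes). With EZH2 peaks outside H3K4me3 alone they were 6 (13.3%, against 2.35%), and with the 6182 strongest EZH2 peaks of every library they were 0 (0.25% of all genes). In that last setting the peaks of sgPRKCI enzalutamide lay at 5 of the 45 genes (MMP15, MMP24, MMP25, ADAMTS1 and ADAMTS13), against 33% of all genes. They lay at 12 genes in sgC enzalutamide (6.94% of all genes), 11 in sgPRKCI DMSO (7.67%) and 14 in sgC DMSO (11.6%).

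H3K27me3 covered at least 25% of the body and flanks of 9 of 45 genes in sgPRKCI enzalutamide (20%, against 8.74% of all genes), 11 in sgC enzalutamide (24.4%, against 10.2%), 9 in sgPRKCI DMSO (20%, against 8.97%) and 9 in sgC DMSO (20%, against 7.59%). ADAMTSL2, a glycoprotein that binds fibrillin, was covered over 40.5% in sgPRKCI enzalutamide, 36% in sgC enzalutamide, 71.8% in sgPRKCI DMSO and 44.2% in sgC DMSO. The sgPRKCI DMSO value stood above the other 3. ADAMTSL2 had no EZH2 peak within 1 kb of an end in any library, and its far-end H3K27me3 peak also reached FAM163B. The gelatinases MMP2 and MMP9, which cut denatured collagen and basement membrane collagen, carried H3K27me3 in all 4 libraries. MMP9 was covered over 42.8% in sgPRKCI enzalutamide, 30.6% in sgC enzalutamide, 49.5% in sgPRKCI DMSO and 38.9% in sgC DMSO. Its EZH2 height was 11.1 in sgPRKCI enzalutamide and 20.2 in sgC enzalutamide, with no peak within 1 kb in either DMSO library. An EZH2 peak lay within 5 kb of MMP9 in all 4 libraries.

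**Figure D3:**
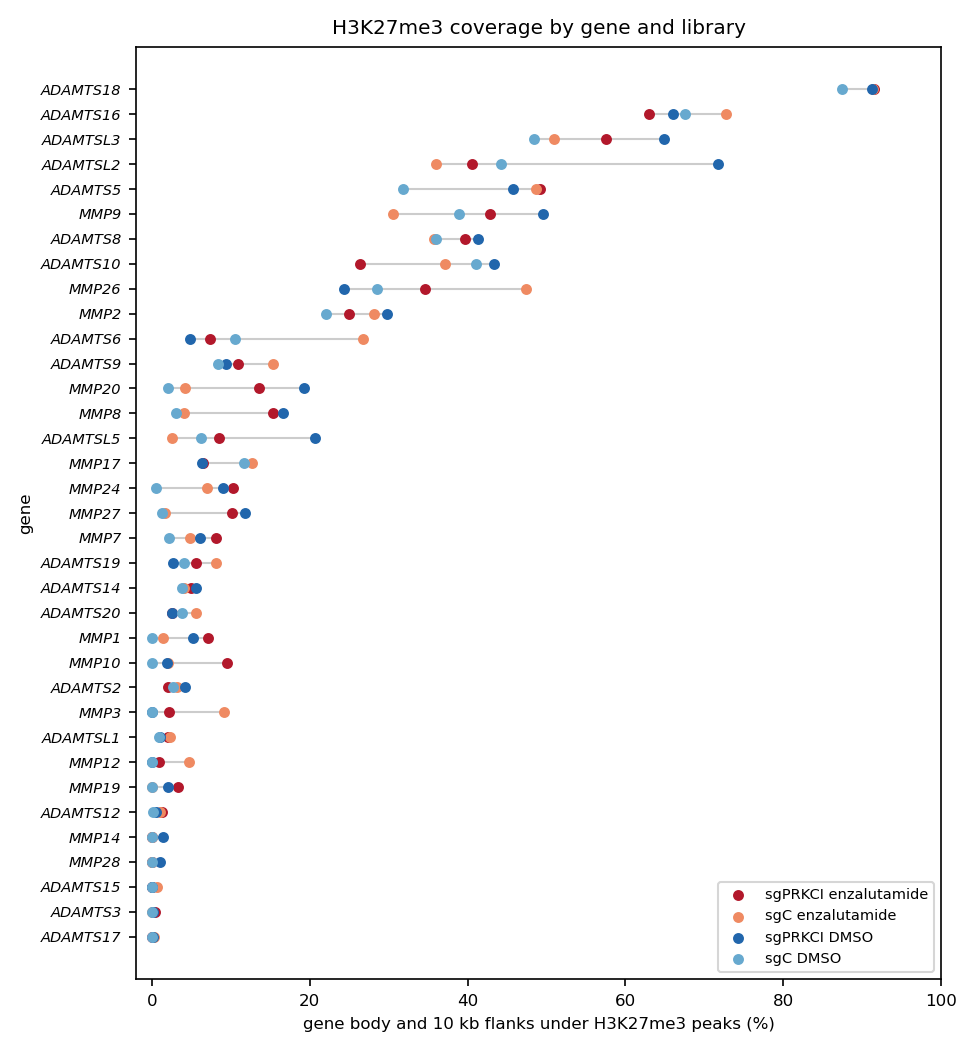
Percent of the gene body and 10 kb flanks under H3K27me3 peaks for each gene with any coverage (rows, ordered by mean), in each of the 4 libraries (points); the grey line joins the lowest and highest library. ADAMTS18 was covered most, at 87.4% to 91.5%, and ADAMTSL2 had the sgPRKCI DMSO point at 71.8% apart from the others.

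ADAMTS19 (chr5:129460298-129738683, plus strand) had no EZH2 peak in sgPRKCI enzalutamide, whereas its height was 29.2 in sgC enzalutamide, 23.1 in sgPRKCI DMSO and 30.3 in sgC DMSO. The sgPRKCI enzalutamide list held no EZH2 peak anywhere in its body and 10 kb flanks, against 4 in sgC enzalutamide, 1 in sgPRKCI DMSO and 2 in sgC DMSO. H3K27me3 was still listed at its start in all 4 libraries, and its fold over background was 4.97 in sgPRKCI enzalutamide, 5.72 in sgC enzalutamide, 5.09 in sgPRKCI DMSO and 4.49 in sgC DMSO. A loss is counted here where the library given second has a peak within 1 kb of an end and the library given first has none within 5 kb, and a gain in the reverse case. ADAMTS19 was the 1 loss in sgPRKCI enzalutamide against sgPRKCI DMSO (2.22%, against 0.324% of all genes) and against sgC enzalutamide (2.22%, against 1.28%).

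The H3K4me3 genes are the second group. H3K4me3 was listed in all 4 libraries at 13 of 45 genes (28.9%, against 58.4% of all genes). These were ADAMTS1, ADAMTS3, ADAMTS6, ADAMTS7, ADAMTS13, ADAMTS15, ADAMTS17, ADAMTSL4, MMP11, MMP15, MMP17, MMP24 and MMP25. MMP15 (chr16:58025754-58046901, plus strand), a membrane-type enzyme, had the tallest peaks. Its H3K4me3 height was 333 in sgPRKCI enzalutamide, 318 in sgC enzalutamide, 249 in sgPRKCI DMSO and 236 in sgC DMSO. Both enzalutamide values were above both DMSO values. Its EZH2 height was 172 in sgPRKCI enzalutamide and 11.1 in sgC DMSO, with no peak in sgC enzalutamide or sgPRKCI DMSO. Within its own list the first was higher than 99.5% and the second higher than 24.8% of EZH2 peaks. Its promoter (chr16:58025504-58025803, plus strand, RefSeq, GRCh38.p14), inside the H3K4me3 peak of all 4 libraries, held 39 CpG and is shown in the same way for comparison with ADAMTS18.
MMP15: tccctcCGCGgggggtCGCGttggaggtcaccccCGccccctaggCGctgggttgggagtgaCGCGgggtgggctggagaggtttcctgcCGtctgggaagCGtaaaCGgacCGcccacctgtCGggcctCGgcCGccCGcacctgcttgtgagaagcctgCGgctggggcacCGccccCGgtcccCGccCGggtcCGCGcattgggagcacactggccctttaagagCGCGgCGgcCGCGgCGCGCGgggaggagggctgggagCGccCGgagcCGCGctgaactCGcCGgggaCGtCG

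Not every such peak belongs to the start of the protease gene. At MMP24 the tall H3K4me3 peak, of height 188 in sgPRKCI enzalutamide, 167 in sgC enzalutamide, 128 in sgPRKCI DMSO and 126 in sgC DMSO, lay at the far end, where EIF6, MMP24OS and MMP24-AS1-EDEM2 also end or begin. At ADAMTS13, the von Willebrand factor protease, the peak of height 174 in sgPRKCI enzalutamide, 158 in sgC enzalutamide, 154 in sgPRKCI DMSO and 165 in sgC DMSO lay at the far end beside CACFD1. The taller of the MMP25 peaks lay within 1 kb of LOC124900372. ADAMTSL4 had H3K4me3 at both ends in every library, and the taller peak was at the far end. By contrast the H3K4me3 peaks of MMP11, MMP15, ADAMTS3, ADAMTS6, ADAMTS7 and ADAMTS17 lay on the side of the start.

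EZH2 in sgPRKCI enzalutamide lay at 10 of the 11 genes that had H3K4me3 without H3K27me3 in that library (90.9%, against 96.2% of all such genes). The exception was ADAMTS6. Among the corresponding genes of the other libraries EZH2 lay at 2 of 12 in sgC enzalutamide (ADAMTS7 and ADAMTS17; 16.7%, against 3.62% of such genes), 0 of 11 in sgPRKCI DMSO (3.99%) and 5 of 12 in sgC DMSO (41.7%, against 19.2%). ADAMTS6 had an H3K4me3 height of 30.2 in sgPRKCI enzalutamide, 22.5 in sgC enzalutamide, 20.5 in sgPRKCI DMSO and 22.6 in sgC DMSO, so its promoter peak was listed throughout. It was under H3K27me3 over 7.34% of its body and flanks in sgPRKCI enzalutamide, 26.8% in sgC enzalutamide, 4.79% in sgPRKCI DMSO and 10.5% in sgC DMSO. The nearest of these peaks lay at most 3122 bp (sgPRKCI DMSO) and at least 2633 bp (sgC DMSO) from an end.

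Genes with EZH2 in sgPRKCI enzalutamide alone were ADAMTS1, ADAMTS3, ADAMTSL4, ADAMTSL5, MMP2, MMP11 and MMP25, or 15.6% of the 45, against 44% of all genes. ADAMTS1, a hyalectanase, had an EZH2 height of 80.4 there and H3K4me3 heights of 155 in sgPRKCI enzalutamide, 128 in sgC enzalutamide, 125 in sgPRKCI DMSO and 103 in sgC DMSO. ADAMTS3, which processes procollagen and VEGFC, had an EZH2 height of 20.3, and MMP11, a stromelysin by name that furin-like proteases activate inside the cell, had 15. MMP25, anchored to the membrane, had 90.8 at the end near LOC124900372 and 20.3 at its other end. ADAMTSL4, which binds microfibrils, had 51.6 at its far end and 35.9 on the side of its start. At MMP2 the EZH2 peak, of height 11.1, overlapped H3K27me3 and no H3K4me3.

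Gains of EZH2 followed the same library. In sgPRKCI enzalutamide against sgPRKCI DMSO 14 genes gained a peak (31.1%, against 54.6% of all genes), and in sgPRKCI enzalutamide against sgC enzalutamide 10 did (22.2%, against 53.2%). These 2 comparisons share the sgPRKCI enzalutamide library. In sgC enzalutamide against sgC DMSO 1 gene gained (MMP24; 2.22%, against 1.49%) and 5 lost a peak (ADAMTS10, ADAMTS13, ADAMTS14, ADAMTS15 and MMP15; 11.1%, against 9.48%). In sgPRKCI DMSO against sgC DMSO 0 gained (0.664% of all genes) and 7 lost a peak (15.6%, against 10.8%), namely those 5 with ADAMTS7 and ADAMTS17. In sgC DMSO and sgPRKCI enzalutamide alone, EZH2 lay at ADAMTS13, ADAMTS14, ADAMTS15 and MMP15 (8.89%, against 8.41%). ADAMTS15, a hyalectanase, had 26.8 in sgPRKCI enzalutamide and 17.8 in sgC DMSO. ADAMTS14, a procollagen N-propeptidase and the 1 of these 4 with H3K27me3, had 17.6 in sgPRKCI enzalutamide and 12.6 in sgC DMSO. ADAMTS13 had 110 in sgPRKCI enzalutamide and 29.6 in sgC DMSO. EZH2 lay at 27 genes in at least 1 library (60%, against 64.6%). It lay at 0 genes in both sgPRKCI libraries and neither sgC library (0.519% of all genes), 0 in both sgC libraries and neither sgPRKCI library (0.619%) and 0 in both DMSO libraries and neither enzalutamide library (0.0349%). The shares of losses were near those of all genes, and 2 of the 3 other libraries held fewer peaks near genes than sgC DMSO.

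ADAMTS7, which cuts cartilage oligomeric matrix protein, had EZH2 heights of 24.8 in sgPRKCI enzalutamide, 17.3 in sgC enzalutamide and 20 in sgC DMSO and no peak in sgPRKCI DMSO. ADAMTS17 had 69.3 in sgPRKCI enzalutamide, 18.5 in sgC enzalutamide and 18.5 in sgC DMSO and likewise no peak in sgPRKCI DMSO, the list with the fewest peaks. Both peaks overlapped H3K4me3. ADAMTS10 had EZH2 in sgC DMSO alone, with a height of 17, at its far end and outside both marks. H3K27me3 covered 26.4% of its body and flanks in sgPRKCI enzalutamide and up to 43.3% in sgPRKCI DMSO. In sgC enzalutamide an H3K27me3 peak lay at that same end. MMP24 also had EZH2 in both enzalutamide libraries and neither DMSO library (with MMP9 4.44%, against 1.02% of all genes), but in sgC enzalutamide the peak, of height 10.1, lay at the start and overlapped H3K27me3, and in sgPRKCI enzalutamide the peak, of height 83.6, lay at the far end and overlapped H3K4me3.

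**Figure D4:**
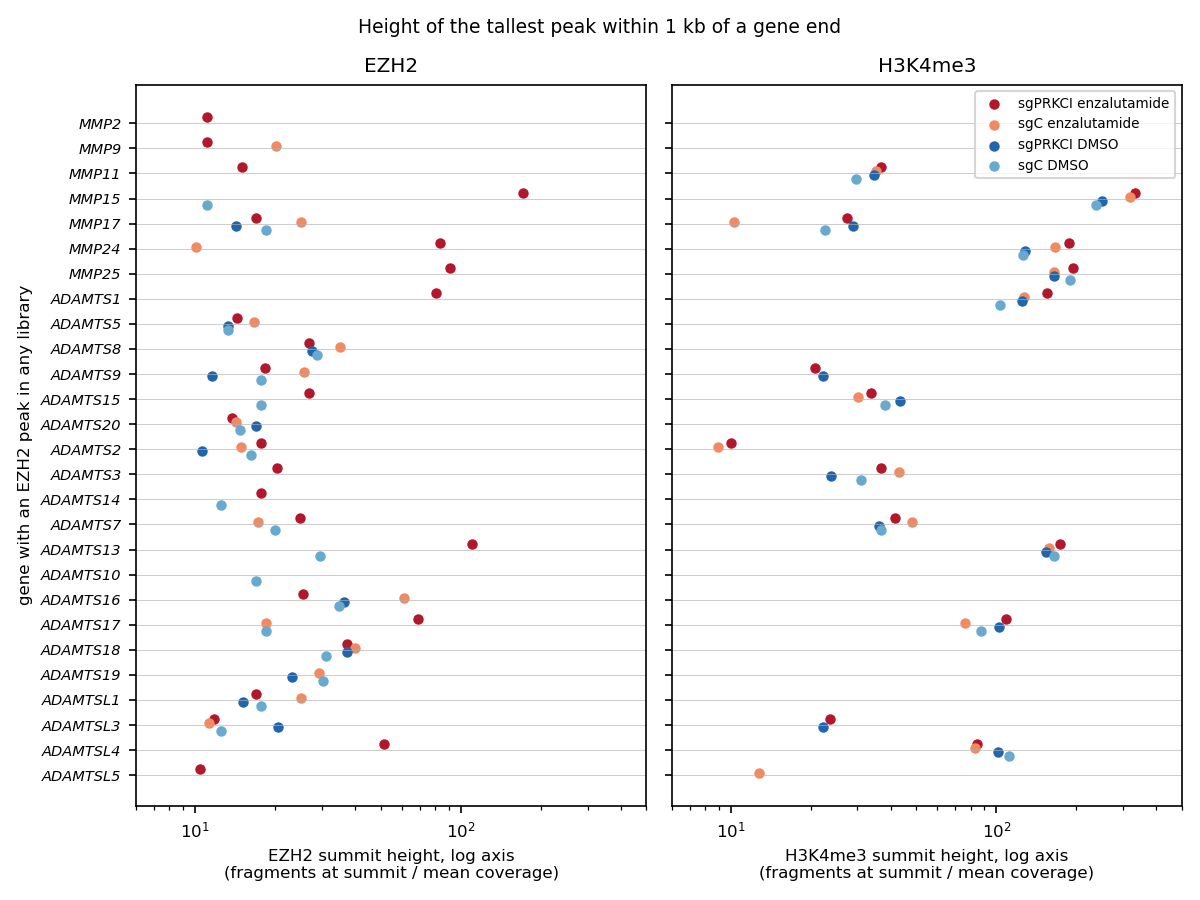
Summit height of the tallest EZH2 peak (left) and H3K4me3 peak (right) within 1 kb of a gene end, on log axes, for the 27 genes with EZH2 in any library; each point is a library and a missing point is no peak. The sgPRKCI enzalutamide points at MMP15, MMP24, MMP25, ADAMTS1, ADAMTS13, ADAMTS17 and ADAMTSL4 lie between 51.6 and 172, while the genes with EZH2 in all 4 libraries stay between 10.7 and 61.3.

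The third group had both marks. MMP17 alone carried H3K4me3 and H3K27me3 in all 4 libraries. Its H3K4me3 height was 27.3 in sgPRKCI enzalutamide, 10.3 in sgC enzalutamide, 28.8 in sgPRKCI DMSO and 22.6 in sgC DMSO, and its EZH2 height was 17 in sgPRKCI enzalutamide, 25 in sgC enzalutamide, 14.2 in sgPRKCI DMSO and 18.5 in sgC DMSO. H3K4me3 was lowest and EZH2 highest in sgC enzalutamide. EZH2 was also highest in that library at ADAMTS5, ADAMTS8, ADAMTS9, ADAMTS16, ADAMTS18 and ADAMTSL1, but not at ADAMTS2, ADAMTS20 or ADAMTSL3. Among the former only ADAMTS9 had H3K4me3 in any library. ADAMTS2, the main procollagen N-propeptidase, kept H3K27me3 throughout and had H3K4me3 in both enzalutamide libraries and neither DMSO library (2.22%, against 0.349% of all genes). The height was 10.1 in sgPRKCI enzalutamide and 8.98 in sgC enzalutamide, below all but 2.55% and 2.31% of the peaks in those lists. Within 1 kb of its ends ADAMTSL5 had H3K4me3 in sgC enzalutamide alone, at a height of 12.8, and H3K27me3 in the other 3 libraries alone. Within 5 kb it had both marks in all 4 libraries, the H3K27me3 peak of sgC enzalutamide lying 1765 bp inside the gene.

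ADAMTS9 and ADAMTSL3 had H3K4me3 in both sgPRKCI libraries and neither sgC library (4.44%, against 0.594% of all genes), and 0 genes had the reverse (0.0899% of all genes). Within 5 kb ADAMTSL3 alone kept the pattern, because an H3K4me3 peak lay 1467 bp from the end of ADAMTS9 in sgC enzalutamide. ADAMTS9 (chr3:64515654-64688000), a hyalectanase, had a height of 20.8 in sgPRKCI enzalutamide and 22.2 in sgPRKCI DMSO. EZH2 was listed there in all 4 libraries, with a height of 18.3 in sgPRKCI enzalutamide, 25.6 in sgC enzalutamide, 11.6 in sgPRKCI DMSO and 17.8 in sgC DMSO. In each treatment EZH2 was lower in sgPRKCI than in sgC. ADAMTS8, ADAMTSL1 and MMP17 had the same order without an H3K4me3 peak confined to sgPRKCI, and the other genes with EZH2 in all 4 libraries did not have this order. ADAMTSL3 (chr15:83654123-84039842, plus strand) had an H3K4me3 height of 23.7 in sgPRKCI enzalutamide and 22.2 in sgPRKCI DMSO. Its EZH2 height was 11.8 in sgPRKCI enzalutamide, 11.3 in sgC enzalutamide, 20.4 in sgPRKCI DMSO and 12.6 in sgC DMSO. EZH2 and H3K4me3 lay at its start, whereas the H3K27me3 peak within 1 kb of an end was at the far end in every library. The EZH2 and H3K4me3 peaks at the start overlapped no H3K27me3 peak. H3K27me3 was not confined to the far end. It covered 57.5% of the body and flanks in sgPRKCI enzalutamide, 51% in sgC enzalutamide, 64.9% in sgPRKCI DMSO and 48.4% in sgC DMSO. Its promoter (chr15:83653873-83654172, plus strand, RefSeq, GRCh38.p14) is shown with CpG in capitals because both H3K4me3 peaks covered it, and its 48 CpG were the highest number among the 28 promoters matched.
ADAMTSL3: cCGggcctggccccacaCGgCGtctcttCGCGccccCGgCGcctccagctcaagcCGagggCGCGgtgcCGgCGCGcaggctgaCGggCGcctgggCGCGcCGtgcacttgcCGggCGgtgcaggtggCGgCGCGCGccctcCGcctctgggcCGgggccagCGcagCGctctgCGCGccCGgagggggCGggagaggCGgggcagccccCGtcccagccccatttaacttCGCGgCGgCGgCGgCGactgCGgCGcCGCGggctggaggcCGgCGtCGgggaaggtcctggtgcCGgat

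MMP7, MMP20, MMP27, MMP8, MMP10, MMP1, MMP3, MMP12 and MMP13 lie side by side on chr11:102520508-102955732, over 435.2 kb. This cluster holds the 3 collagenases MMP1, MMP8 and MMP13, the stromelysins MMP3 and MMP10, the matrilysin MMP7, the macrophage elastase MMP12, the enamel protease MMP20 and MMP27. No EZH2 peak and no H3K4me3 peak lay in it in any library. Its nearest coding neighbours TMEM123 and DCUN1D5 had H3K4me3 and no H3K27me3 at their ends in all 4 libraries. H3K27me3 was sparse. Its peaks covered 20.6 kb (4.74%) in sgPRKCI enzalutamide, 10.8 kb (2.48%) in sgC enzalutamide, 24.9 kb (5.73%) in sgPRKCI DMSO and 3.54 kb (0.813%) in sgC DMSO. The number of peaks was 17 in sgPRKCI enzalutamide, 12 in sgC enzalutamide, 19 in sgPRKCI DMSO and 6 in sgC DMSO. In both treatments sgPRKCI covered more of the cluster than sgC, while over the genome sgPRKCI covered more in DMSO and less on enzalutamide.

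**Figure D5:**
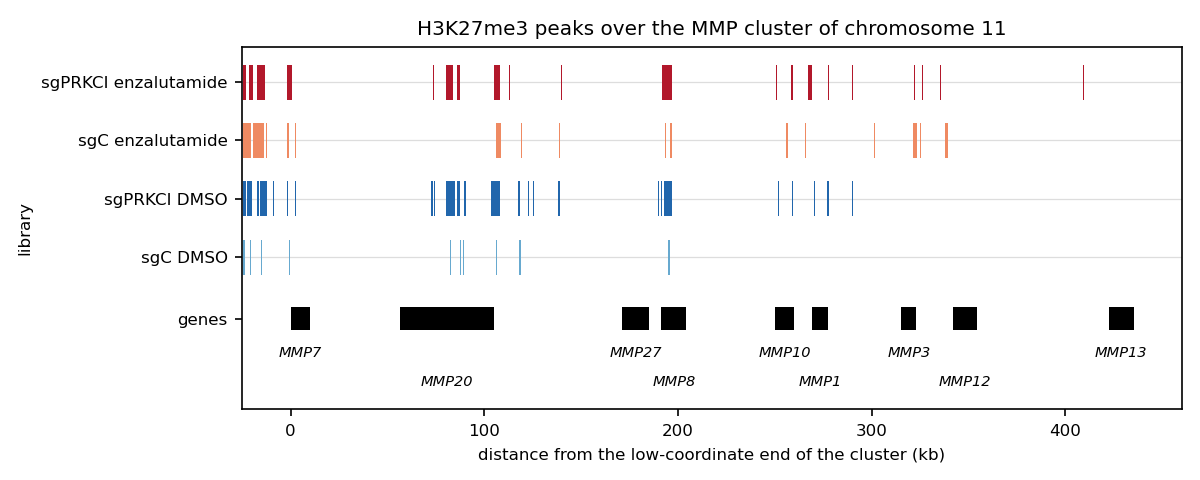
H3K27me3 peaks (coloured) in the 4 libraries over the 9 MMP genes of chromosome 11 (black), by distance in kb from the low-coordinate end of the cluster. The covered length was 20.6 kb in sgPRKCI enzalutamide, 10.8 kb in sgC enzalutamide, 24.9 kb in sgPRKCI DMSO and 3.54 kb in sgC DMSO, and the peaks left of MMP7 lie outside the cluster.

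MMP1, MMP8, MMP10 and MMP20 had H3K27me3 within 1 kb of an end in both sgPRKCI libraries and neither sgC library. They were 8.89% of the 45 genes (interval 2.48 to 21.2%), against 0.539% of all genes and 0 of the 49 collagen and lysyl oxidase genes, and 0 of the 45 had the reverse pattern (0.709% of all genes). The 4 genes are neighbours and so are not independent. MMP20 had the strongest of these peaks, with a fold enrichment of 3.49 and a −log10 q of 3.32 in sgPRKCI enzalutamide, and 3.42 and 2.6 in sgPRKCI DMSO, at the start of the gene. MMP1, the interstitial collagenase, had −log10 q values of 2.62 in sgPRKCI enzalutamide and 1.56 in sgPRKCI DMSO. MMP8, the neutrophil collagenase, had 2.33 in sgPRKCI enzalutamide and 1.69 in sgPRKCI DMSO. MMP10, a stromelysin, had 2.08 in sgPRKCI enzalutamide and 1.62 in sgPRKCI DMSO. The lists begin at a −log10 q of about 1, so these peaks are near their lower limit. With a −log10 q of at least 2 only MMP20 kept the pattern, and with a window of 5 kb no gene did. At 5 kb MMP7, MMP8 and MMP20 had H3K27me3 in all 4 libraries. MMP3 had H3K27me3 in sgC enzalutamide alone, at its high-coordinate end with a −log10 q of 3. MMP7 had it at its far end in sgPRKCI enzalutamide, sgC enzalutamide and sgC DMSO. Outside the cluster MMP26, the other matrilysin, had it at its far end in the same 3 libraries. In both enzalutamide libraries that peak also lay within 1 kb of an end of OR51L1. H3K27me3 covered 34.6% of the body and flanks of MMP26 in sgPRKCI enzalutamide and 47.4% in sgC enzalutamide. In DMSO it covered 24.4% in sgPRKCI, which had no peak within 1 kb of an end, and 28.5% in sgC.

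Counted as gains and losses, which need an empty 5 kb in the other library, H3K27me3 gave 3 calls in all. In sgPRKCI DMSO against sgC DMSO, MMP1 and MMP10 gained H3K27me3 (4.44%, against 1.57% of all genes) and 0 genes lost it (0.774%). In sgC enzalutamide against sgC DMSO, MMP3 gained it (2.22%, against 1.37%) and 0 lost it (0.454%). In sgPRKCI enzalutamide against sgPRKCI DMSO 0 gained (0.474%) and 0 lost it (1.33%), and in sgPRKCI enzalutamide against sgC enzalutamide 0 gained (0.524%) and 0 lost it (1.51%). Over the 4 libraries 15 genes had H3K27me3 in all (33.3%, against 12.9%) and 20 in none (44.4%, against 78.6%).

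For H3K4me3, ADAMTS9 and ADAMTSL3 were the gains in sgPRKCI DMSO against sgC DMSO (4.44%, against 1.77%), with 0 losses (0.255%). ADAMTS2 was the gain in sgC enzalutamide against sgC DMSO (2.22%, against 1.54%), with 0 losses (0.27%). In sgPRKCI enzalutamide against sgPRKCI DMSO 0 gained (0.829%) and 0 lost H3K4me3 (0.524%). In sgPRKCI enzalutamide against sgC enzalutamide ADAMTSL3 gained it (2.22%, against 1.07%), with 0 losses (0.524%). ADAMTS9 was not counted there because a peak lay within 5 kb in sgC enzalutamide.

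Coverage of the body and flanks was higher in sgPRKCI than in sgC in both treatments for 6 of the 9 cluster genes, and for 12 of the 36 genes elsewhere (33.3%). Over all 45 genes that is 40%, against 11.5% of all genes. Among genes with any coverage it is 18 of 35 (51.4%), against 28.5% of such genes. The reverse held for 6 of 45 (13.3%, against 7.62%). The 10 kb flanks of some neighbouring cluster genes overlap, so the same peak can count for several genes. The cluster genes are thus not independent in these counts. MMP8 was covered over 15.4% in sgPRKCI enzalutamide, 4.01% in sgC enzalutamide, 16.6% in sgPRKCI DMSO and 2.99% in sgC DMSO. MMP27 had no peak within 1 kb of an end and 0% of its body covered in every library. Its flanks alone gave coverage of 10.1% in sgPRKCI enzalutamide, 1.64% in sgC enzalutamide, 11.8% in sgPRKCI DMSO and 1.29% in sgC DMSO. The sgPRKCI values were above the sgC values for both genes, but the peaks in the MMP27 flank lay at MMP8. MMP27 is therefore not a separate case. The median over the 45 genes was 4.91% in sgPRKCI enzalutamide, 3.16% in sgC enzalutamide, 2.73% in sgPRKCI DMSO and 0.934% in sgC DMSO, against a median of 0 over all genes in each library.

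The cluster also differed in its promoters. The 5 cluster promoters matched held 2 to 4 CpG each, against a median of 26.5 over the 28 promoters of the 45 genes and 22 over all 15841. The motif TGANTCA, searched on both strands, was in 3 of the 5 (MMP7, MMP10 and MMP20), against 4 of 28 and 5.75% of all promoters. The AP-1 consensus has C or G in the middle. MMP7 holds that form (TGAGTCA), whereas MMP10 and MMP20 hold TGAATCA. The TATA motif TATAAA, searched on both strands with no overlap with the first in these genes, was in 4 of the 5 (all but MMP27), against 8 of 28 and 9.63% of all promoters. A match is a string of letters and shows no binding. The promoters of MMP20 (chr11:102625283-102625582, minus strand) and MMP10 (chr11:102780579-102780878, minus strand) are shown from RefSeq (GRCh38.p14), 5′ to 3′, with both motifs in capitals, for contrast with the CpG-dense promoters above. In MMP20 the first motif begins 112 bases and the second 72 bases before the start, and in MMP10 67 and 31 bases before it. The H3K27me3 peak of MMP20 covered its promoter in sgPRKCI DMSO, and in sgPRKCI enzalutamide it began upstream of it.
MMP20: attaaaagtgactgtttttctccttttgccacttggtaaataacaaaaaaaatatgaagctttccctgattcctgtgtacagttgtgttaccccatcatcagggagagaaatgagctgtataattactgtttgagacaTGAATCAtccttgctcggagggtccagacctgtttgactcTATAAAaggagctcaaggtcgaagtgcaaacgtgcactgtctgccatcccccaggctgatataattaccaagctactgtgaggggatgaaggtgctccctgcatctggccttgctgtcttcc
MMP10: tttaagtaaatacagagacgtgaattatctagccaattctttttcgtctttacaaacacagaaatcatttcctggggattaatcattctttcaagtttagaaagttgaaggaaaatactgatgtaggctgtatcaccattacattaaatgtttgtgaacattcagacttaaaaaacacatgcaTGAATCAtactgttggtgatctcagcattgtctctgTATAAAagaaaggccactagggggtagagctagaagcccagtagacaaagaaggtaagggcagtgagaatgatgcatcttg

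Across the 28 promoters the classes differed in CpG number. The median was 46 where both marks were listed in at least 1 library (4 promoters), 28.5 for H3K4me3 without H3K27me3 (8), 16.5 for H3K27me3 without H3K4me3 (12) and 10 for neither (4). Over all promoters the medians of the same classes were 28, 27, 8 and 5. These classes use marks at either gene end, so the promoter counted is not always the marked end. Of the 12 promoters with H3K27me3 without H3K4me3, 7 had H3K27me3 within 1 kb of the start itself in at least 1 library, with a median of 26 CpG and a range of 2 at MMP10 to 42 at ADAMTS14. The other 5 were MMP7, MMP8, MMP26, ADAMTS10 and ADAMTSL1.

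Among the partners of these enzymes, the inhibitor TIMP3 had EZH2 and H3K27me3 in all 4 libraries, the 1 of 5 inhibitor genes to do so. Its EZH2 height was 18.3 in sgPRKCI enzalutamide, 17.9 in sgC enzalutamide, 13.3 in sgPRKCI DMSO and 24.4 in sgC DMSO. TIMP2 and RECK had H3K4me3 in all 4 libraries. Of 9 substrate genes, 7 had H3K27me3 in every library, and EZH2 lay at 7 in sgPRKCI enzalutamide and at 6 in each of the other libraries. VCAN, the versican cut by hyalectanases, had EZH2 heights of 28.1 in sgPRKCI enzalutamide, 29.2 in sgC enzalutamide, 18.7 in sgPRKCI DMSO and 19.2 in sgC DMSO. FBN2, a fibrillin of microfibrils, had 22.9 in sgPRKCI enzalutamide, 33.9 in sgC enzalutamide, 28.4 in sgPRKCI DMSO and 36.2 in sgC DMSO, the lowest value being that of sgPRKCI enzalutamide. None of the 3 activator genes FURIN, PLAU and PLAT had EZH2 or H3K27me3, and FURIN had H3K4me3 in every library but sgC DMSO.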

How the data were processed

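The data are peak lists from CUT&RUN, 1 for each of 12 libraries; 4 IgG libraries were not analysed here. The submitters' processing notes name FastQC, Trimmomatic, Bowtie2, SAMtools, MACS2 and GRCh38, with no version, role or setting. Peaks were called per library by the authors and deposited as narrow lists (EZH2, H3K4me3) and broad lists (H3K27me3). For each peak the deposited columns hold a score (10 times the −log10 q), the fold enrichment over background, the −log10 p and −log10 q, and in narrow lists the offset of the summit. The lowest −log10 q was 4 to 4.05 in narrow and 1 to 1.02 in broad lists.

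From these, fragments at each narrow summit were solved from the fold enrichment and −log10 p (Python 3.11.15, numpy 2.4.6). At a tolerance of 0.002 in −log10 p, 99.22 to 100% of EZH2 and H3K4me3 summits came out as whole fragments, after a scale of 0.89 for EZH2 in sgPRKCI enzalutamide. Peaks on other contigs, 2.39 to 6.5% of each list, were left out. The depth of the broad lists is unknown. Gene ends came from RefSeq, and a gene counted as bound where at least 1 bp of a peak lay within 1 kb of either end. The steps were checked on simulated data. Members and lists were chosen with earlier results of these data known. Genes named with values were those with EZH2 in any library, those whose H3K4me3 or H3K27me3 call differed between libraries, and the chromosome 11 cluster; a few more are typical of their role. With 1 library a group no test was made, and intervals cover counting error only.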

Additional observations from a re-analysis of the deposited data

Results flagged for a closer look

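At ADAMTS13, ADAMTS14, ADAMTS15 and MMP15 the EZH2 call of sgPRKCI against sgC had opposite directions by treatment, being a gain on enzalutamide and a loss in DMSO at these 4 genes. By construction the same 4 genes gained EZH2 in sgPRKCI enzalutamide against sgPRKCI DMSO and lost it in sgC enzalutamide against sgC DMSO. Both descriptions are of 1 state, EZH2 in sgC DMSO and sgPRKCI enzalutamide alone, so the second adds no support to the first. The difference was not tested, with 1 library in each group. Counted as gains and losses, which need an empty 5 kb, this state held for 4 of 45 protease genes and 8.07% of all genes. By peaks within 1 kb alone it held for 8.41% of all genes, and 8805 genes had EZH2 in sgPRKCI enzalutamide alone.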

How the results depend on the processing

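Of 269 values of 46 results under 12 alternatives (2 chosen after seeing the data), 183 stayed within 1.5 times. Counts below are of the 45 genes and stand without the share of all genes in the same setting. They therefore do not show whether a shift is particular to these genes, and its cause was not tested. With transcription starts alone, 13 genes could not be placed and were counted as having no peak, which by itself lowers the counts of that setting. Another 4 genes had no listed start and were placed by the end with H3K4me3. Their H3K4me3 in at least 1 library was thus fixed in advance. With a −log10 q of at least 10 (narrow) or 2 (broad), EZH2 lay at 7 genes in sgPRKCI DMSO, at 5 in all 4 libraries and at 1 (ADAMTSL3) in both sgPRKCI libraries alone. In that setting EZH2 was gained at 1 in sgPRKCI DMSO against sgC DMSO and lost at 3 in sgC enzalutamide against sgC DMSO and 3 in sgPRKCI against sgC enzalutamide. H3K27me3 gains were then 2 in sgC enzalutamide against sgC DMSO and 3 in each comparison of sgPRKCI enzalutamide, and its losses were 2 in sgPRKCI against sgC DMSO and 1 in each other comparison, with the both-sgPRKCI pattern at 1. H3K4me3 gains were 0 and losses 1 in sgC enzalutamide against sgC DMSO, and gains 3 in sgPRKCI against sgC enzalutamide. Median H3K27me3 coverage was 2.0% in sgPRKCI enzalutamide, 0.706% in sgC enzalutamide, 0.681% in sgPRKCI DMSO and 0.0% in sgC DMSO, and over the gene body alone 0.145% in sgC DMSO. With starts alone, EZH2 lay at 16 genes in sgPRKCI enzalutamide, 7 in sgPRKCI DMSO and 6 in all 4 libraries, with 3 losses in sgC enzalutamide against sgC DMSO and 2 in sgPRKCI against sgC enzalutamide. H3K27me3 lay at 11 in sgPRKCI enzalutamide, 8 in sgC enzalutamide, 12 in sgPRKCI DMSO, 8 in sgC DMSO and 7 in all 4, with 2 in the both-sgPRKCI pattern, 1 gain in sgPRKCI against sgC DMSO and 0 in sgC enzalutamide against sgC DMSO. H3K4me3 gains were 1 in sgPRKCI enzalutamide against sgPRKCI DMSO and 2 against sgC enzalutamide. With 6182 EZH2 peaks a library, EZH2 lay at 5 genes in sgPRKCI enzalutamide and at 0 in all 4. Gains were then 1 in sgPRKCI against sgC DMSO, 0 in sgC enzalutamide against sgC DMSO and 5 in each comparison of sgPRKCI enzalutamide, and losses were 4 in sgPRKCI against sgC DMSO, 3 in sgC enzalutamide against sgC DMSO, 11 in sgPRKCI enzalutamide against sgPRKCI DMSO and 12 against sgC enzalutamide. With EZH2 outside H3K4me3 alone, EZH2 lay at 9 in sgPRKCI enzalutamide, 8 in sgC enzalutamide, 7 in sgPRKCI DMSO, 9 in sgC DMSO and 6 in all 4. Losses were 2 in sgPRKCI against sgC DMSO and 2 in sgC enzalutamide against sgC DMSO, and gains 0 in the second of these, 2 in sgPRKCI enzalutamide against sgPRKCI DMSO and 1 against sgC enzalutamide. With 0.5 kb, or a 500 bp overlap, H3K27me3 gains in sgPRKCI against sgC DMSO were 1 and the both-sgPRKCI pattern 2. With 5 kb, EZH2 gains in sgC enzalutamide against sgC DMSO were 2, the both-sgPRKCI pattern was 0 for H3K27me3 and 1 for H3K4me3, and H3K27me3 lay at 23 in all 4. H3K27me3 gains were then 4 in sgPRKCI against sgC DMSO, 5 in sgC enzalutamide against sgC DMSO and 1 in sgPRKCI enzalutamide against sgPRKCI DMSO, its losses 2 in each comparison of sgPRKCI enzalutamide, and H3K4me3 gains 2 in sgC enzalutamide against sgC DMSO. Without the empty 5 kb, H3K27me3 gains were 5 in sgPRKCI against sgC DMSO, 3 in sgC enzalutamide against sgC DMSO, 2 in sgPRKCI enzalutamide against sgPRKCI DMSO and 5 against sgC enzalutamide, and its losses 2 in sgPRKCI against sgC DMSO, 1 in sgC enzalutamide against sgC DMSO and 2 in sgPRKCI against sgC enzalutamide. EZH2 gains were 2 in sgC enzalutamide against sgC DMSO, and H3K4me3 gains 2 there, 1 in sgPRKCI enzalutamide against sgPRKCI DMSO and 2 against sgC enzalutamide, with 1 loss in the last. With 78855 H3K27me3 peaks a library, its gains were 4 in sgPRKCI against sgC DMSO, 2 in sgC enzalutamide against sgC DMSO and 1 in sgPRKCI against sgC enzalutamide. No paired analysis was possible because each group had 1 library, and leaving out a library removes its whole group. Without sgPRKCI enzalutamide, 11 genes had EZH2 in every remaining library. Adding MMP23B moved no count beyond 1.5 times.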
